A study of Mus musculus with 8 samples.

Results

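The genes described here are 9 members of the pathway that makes and breaks down heme and brings in the iron for it: Alas1, Alad, Uros, Urod, Cpox, Ppox and Fech, which are enzymes of heme synthesis, Tfrc, which takes up iron, and Hmox1, which degrades heme. They were taken by name from the 21828 genes found in both count tables, and all 9 passed the filter on low counts in both cell lines. In each line 7 of the 9 were higher after differentiation, beside 39.1% of all genes tested in BAC and 39.8% in 3T3-L1. Tfrc and Alas1 moved most, by 17.2-fold and 9.91-fold in BAC. The lines differed most at Hmox1, which fell in BAC and rose in 3T3-L1, and next at Ppox, which rose in BAC and did not rise in 3T3-L1.

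RNA was sequenced from differentiated and undifferentiated cells of 2 mouse lines, with 2 libraries in each of the 4 groups. BAC day 4 and BAC day 0 were wild-type brown preadipocytes, derived from the interscapular brown fat of newborn mice and immortalized with SV40 large T antigen, after and before differentiation. 3T3-L1 day 6 and 3T3-L1 day 0 were a wild-type embryo fibroblast line that forms fat cells in culture, after and before the same treatment. Both lines were brought to differentiate in a medium with IBMX, indomethacin, dexamethasone, insulin and the thyroid hormone T3, and were then kept in insulin and T3. Day 0 cells had been confluent but had not received that medium, so the agents and the state of the cells differ together. Per the methods the induction medium was replaced after 2 days, so BAC was sampled sooner after that change than 3T3-L1. The paper takes mature BAC at day 6 and stained 3T3-L1 after more days than BAC. Differentiated here therefore means only BAC at day 4 and 3T3-L1 at day 6, which may precede full maturity. Each line is a single immortalized line, and cell line, count table and day of sampling also differ together, so levels were not tested between the lines. Whether the libraries of each group are separate cultures is not stated in the labels, so the p-values rest on library-to-library spread that could be technical.

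Heme is an iron-holding ring that the cytochromes of the respiratory chain, catalase and many other proteins need to work. Its synthesis begins in mitochondria, where ALAS1 joins glycine to succinyl-CoA in the rate-limiting step of most cells, passes through the cytosol and ends in mitochondria, where ferrochelatase inserts iron. Brown fat is rich in mitochondria, and its color comes in large part from their cytochromes. Iron enters cells bound to transferrin through the receptor TFRC, and iron regulatory proteins hold Tfrc mRNA stable and block translation of ferritin mRNA when iron is scarce.

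The elements bound by those iron regulatory proteins are shown first, because they separate the iron genes into 2 kinds. GENCODE M21 transcripts of build GRCm38 were searched for an unpaired c, 5 bases, the 6-base loop CAGTGN with any last base but G, and 5 bases that pair with the first 5, G-T pairs allowed. Of 22500 genes with a coding transcript, 133 (0.591%) held such letters in a UTR. Tfrc held 4 of them in its 3′ UTR, starting at bases 3321, 3700, 3765 and 3812 of its long transcript. The ferritin genes Fth1 and Ftl1, the iron exporter Slc40a1 and the erythroid Alas2 each held 1, in the 5′ UTR. The loops are in capitals.
Tfrc, base 3321: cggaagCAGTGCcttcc
Tfrc, base 3700: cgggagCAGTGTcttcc
Tfrc, base 3765: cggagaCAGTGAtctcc
Tfrc, base 3812: cgggaaCAGTGTttccc
Fth1: cttcaaCAGTGCttgaa
Ftl1: cttcaaCAGTGTttgaa
Slc40a1: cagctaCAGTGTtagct
Alas2: cgtcctCAGTGCagggc

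Promoter windows of RefSeq on GRCm38.p6 were searched for 7 of the 9 genes, without Fech and Hmox1. The 250 bases before a start are shown for the pair that rose most. Capitals mark the letters CGCANGCG, to which the respiratory-gene factor NRF1 binds, and CCAAT, which adjoins the NRF1 letters in the Tfrc window. The Alas1 stretch, on the minus strand at chr9:106247731-106247980, held CGCANGCG at 2 places. It is from the second of 2 Alas1 windows, where the places lie at -223 and -194 from the start. In the first window the same places lie after the start, at 2 and 31. The Tfrc stretch, on the plus strand at chr16:32608646-32608895, is from the first of 2 windows and held CGCANGCG at 1 place. A match was sought on both strands and is a description of the letters only.
Alas1: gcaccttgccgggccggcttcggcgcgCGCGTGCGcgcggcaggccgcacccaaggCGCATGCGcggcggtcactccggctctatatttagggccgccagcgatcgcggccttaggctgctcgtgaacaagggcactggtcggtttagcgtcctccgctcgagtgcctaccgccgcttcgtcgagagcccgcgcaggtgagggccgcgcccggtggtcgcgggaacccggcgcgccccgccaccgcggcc
Tfrc: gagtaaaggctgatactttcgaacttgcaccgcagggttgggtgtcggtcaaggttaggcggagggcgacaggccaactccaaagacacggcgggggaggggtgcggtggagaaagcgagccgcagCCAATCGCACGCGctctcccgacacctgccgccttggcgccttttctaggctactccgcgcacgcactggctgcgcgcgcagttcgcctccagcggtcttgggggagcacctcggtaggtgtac

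The same NRF1 letters stood in the windows of Uros and Cpox, in 5 of the 11 windows of the 7 genes, 2 of which were of Alas1, against 8.21% of 32851 windows of the same length. The windows of 1 gene can overlap, and the 2 of Alas1 hold the very same places, so the count of windows repeats them. By gene, 4 of the 7 held these letters. The second windows of Uros and Tfrc lacked them. The E-box letters CACGTG stood in 4 of the 11, of Alad (both), Urod and Uros, against 7.15% of all windows. Stretches of 30 bases are given for comparison, with NRF1 letters in capitals for Uros and Cpox and E-box letters in capitals for Alad and Urod. Cpox thus carried the NRF1 letters with no rise in either line, unlike Alas1, Tfrc and Uros. Alad, Urod and Ppox lacked the NRF1 letters, and yet Alad and Urod rose in both lines and Ppox in BAC. Of the other letters searched, CCAAT (37.4% of all windows) stood in those of Ppox, Alad, Urod and Tfrc. The HIF core ACGTG (19.6%), which lies within CACGTG, stood in those of Alad, Urod, Uros, Tfrc and Cpox, and AGATAA (11.2%), to which GATA factors bind, in that of Cpox. TGACNNNGC of NRF2 sites (12.4%), TGACGTCA of CREB sites (1.79%) and TCAAGGTCA of ERR sites (0.423%) were in none of the 7 genes' windows. Fech and Hmox1 were not among the 7, so this says nothing of their letters.
Uros, chr7:133709323-133709352, minus strand: cggtcacactgCGCCTGCGcgagtcccgcc
Cpox, chr16:58670157-58670186, plus strand: cacaggaggccCGCGTGCGagcagcaggac
Alad, chr4:62519920-62519949, minus strand: ccgccccgccccCACGTGggcttgcgcttt
Urod, chr4:116994445-116994474, minus strand: cactggatcggtCACGTGgttctcaatatg

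Values are CPM, counts per 1000000 counts of a library whose total was scaled by TMM factors within each line, and a change is the log2 fold of the differentiated cells over day 0 from edgeR's quasi-likelihood test, called at an adjusted p under 0.05 over all genes tested. Library totals lay between 9029368 and 10129103 counts. The share of counts from mitochondrially encoded genes was 8.50% and 9.93% in BAC day 4 against 3.06% and 3.02% in BAC day 0, and 4.83% and 4.88% in 3T3-L1 day 6 against 2.67% and 2.58% in 3T3-L1 day 0. Leaving those genes out before scaling changed no call among the 9 genes in either line. All 7 adipocyte markers rose and all 5 preadipocyte markers fell in both lines. The adipocyte markers summed to 18811 to 20062 CPM in BAC day 4 against 972 to 989 in BAC day 0. In 3T3-L1 they summed to 39343 to 40793 CPM at day 6 against 863 to 978 at day 0. All 7 rose less in BAC than in 3T3-L1 (median difference -2.27), and all 5 preadipocyte markers fell further in BAC (-2.45). The part of this in the differences between lines was not tested. The 6 brown adipocyte markers summed to 384 to 498 CPM in BAC day 4 against 0.901 to 1.18 in BAC day 0, and to 52.4 to 52.7 CPM in 3T3-L1 day 6 against 20.2 to 20.6 in 3T3-L1 day 0. The 3T3-L1 sums came mostly from Ppargc1a, with 41.7 and 42.5 CPM at day 6 against 20.4 and 20.2 at day 0. Ucp1 had 2 and 0 counts in 3T3-L1 day 6. Markers of other cell types stood low. The 11 erythroid markers found in both tables summed to 3.95 to 4.35 CPM in BAC day 4 against 15.2 to 16.8 in BAC day 0, and to 5.24 to 6.02 in 3T3-L1 day 6 against 7.01 to 7.02 in 3T3-L1 day 0. Of these, 7 were at 0 in BAC day 4 and 6 in each other group, the hemoglobin genes Hba-a1, Hba-a2 and Hbb-bt and the red cell gene Slc4a1 in every library, and Epor, the erythropoietin receptor, had 7 and 8 counts in BAC day 4 against 177 and 149 in BAC day 0. The 8 macrophage markers summed to 6.04 to 7.65 CPM in BAC day 4 against 5.16 to 5.23 in BAC day 0, and to 1.97 to 3.61 in 3T3-L1 day 6 against 6.73 to 6.82 in 3T3-L1 day 0. Ptprc, Adgre1 and Spic were at 0 in every library, with 6 of the 8 at 0 in BAC day 4, 4 in 3T3-L1 day 6 and 3 in each day 0 group, and Cd68 had 64 and 49 counts in BAC day 4 against 41 and 41 in BAC day 0. The 4 endothelial markers summed to 0.120 to 0.846 CPM in BAC day 4 against 16.4 to 18.1 in BAC day 0, nearly all from Kdr, with 0 and 2 counts at day 4 against 170 and 182 at day 0, and to 1.05 to 1.16 in 3T3-L1 day 6 against 1.23 to 1.99 in 3T3-L1 day 0. Cdh5 and Tek were at 0 in BAC day 4, and Cdh5 and Kdr in 3T3-L1 day 6. The 5 skeletal muscle markers summed to 0.120 to 0.242 CPM in BAC day 4 against 0.181 to 0.270 in BAC day 0, and to 4.89 to 5.56 CPM in 3T3-L1 day 6 against 0.189 to 0.379 in 3T3-L1 day 0, with Myod1 and Myh1 at 0 in every library. The 3 hepatocyte markers summed to 2.66 to 3.35 CPM in BAC day 4 against 0 to 0.180 in BAC day 0, and to 1.05 to 6.49 in 3T3-L1 day 6 against 0.379 to 0.759 in 3T3-L1 day 0, with Alb at 0 in BAC. The part of such cells in the results was not tested. In whole cultures a change in the number of cells of a type and a change in RNA per cell cannot be told apart.

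Changes were common in these cells, which sets the scale for counts of the 9 genes and of the companion lists given below. In BAC, 39.1% of the 14028 genes tested were higher at day 4 and 39.4% lower. Of the 9 genes, 7 were higher and 2 lower, with a median change of 1.34 beside 0.01 for all genes tested. In 3T3-L1, 39.8% of 11902 genes were higher at day 6 and 39.6% lower. Of the 9 genes, 7 were higher, 1 lower and 1 not past the test, with a median of 1.23 beside 0.00 for all genes.

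**Figure D1:**
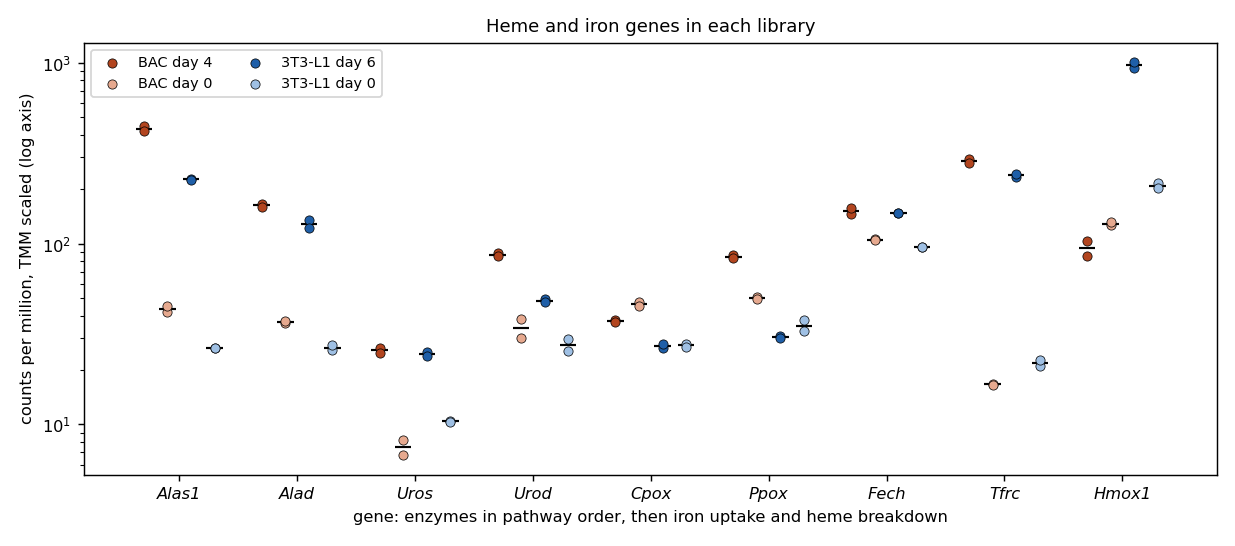
Each point is 1 library, in TMM-scaled CPM on a log axis, for the 9 genes; short lines are group means of 2 libraries. Alas1 and Tfrc stand furthest above day 0 in both lines, Cpox is slightly lower in BAC and overlaps in 3T3-L1, and Hmox1 is lower at day 4 in BAC and higher at day 6 in 3T3-L1.

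Alas1, the rate-limiting enzyme (chr9:106233455-106248654 on GRCm38), had 447 and 418 CPM in BAC day 4, against 41.8 and 45.4 CPM in BAC day 0. The groups were far apart, and the fitted change was 3.31 ± 0.09 (SE), or 9.91-fold, with an adjusted p of 9.06e-14. In 3T3-L1 it had 228 and 226 CPM at day 6, against 26.5 and 26.6 CPM at day 0, a change of 3.09 ± 0.06 or 8.53-fold (adjusted p 1.15e-19). The change ranked above 95.9% of all genes tested in BAC and above 95.8% in 3T3-L1. The changes of the lines differed by 0.19 ± 0.11 (BAC minus 3T3-L1, adjusted p 0.140), with a 95% interval from -0.02 to 0.40. That difference was past the test in 3 of 15 alternatives, at 0.26 with RLE factors (adjusted p 0.0463), 0.30 with upper-quartile factors (adjusted p 0.0175) and 0.40 without BAC day 0 replicate 2 (adjusted p 0.0104). Alas2, the erythroid enzyme for the same step, had 9 and 14 counts in BAC day 4 against 3 and 9 in BAC day 0, too few for the test. It had 19 and 17 counts in 3T3-L1 day 6 against 7 and 7 in 3T3-L1 day 0, a change of 1.64 ± 0.40 (adjusted p 9.03e-04) at a mean of 2.09 CPM at day 6. The transcripts for this step were thus almost wholly Alas1 in these cells. An antisense gene, 4930500F10Rik, shares 465 exonic bases with Alas1 and is not used here.

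Alad, which joins the products of ALAS1 into the first ring (chr4:62509169-62519918), showed the next largest change among the enzymes. It had 165 and 160 CPM in BAC day 4, against 36.2 and 37.1 CPM in BAC day 0, a change of 2.14 ± 0.08 or 4.42-fold (adjusted p 4.13e-12). It had 135 and 122 CPM in 3T3-L1 day 6, against 25.7 and 27.4 CPM in 3T3-L1 day 0, a change of 2.27 ± 0.07 or 4.82-fold (adjusted p 2.08e-16). The groups did not overlap in either line. The difference between lines was -0.15 ± 0.11 (adjusted p 0.249), with a 95% interval from -0.37 to 0.07.

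The middle steps, which build and trim the large ring in the cytosol, rose less. Uros, which closes the ring, was the least abundant of the enzymes at day 0 in BAC. It had 26.4 and 24.9 CPM in BAC day 4, against 6.76 and 8.23 CPM in BAC day 0, a change of 1.77 ± 0.14 or 3.42-fold (adjusted p 3.15e-08). In 3T3-L1 it had 25.1 and 23.9 CPM at day 6, against 10.5 and 10.3 CPM at day 0, a change of 1.23 ± 0.12 or 2.35-fold (adjusted p 9.32e-09). So Uros came to nearly the same CPM in the differentiated cells of both lines, side by side and without a test.

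Urod, which removes side groups from the ring, had 88.2 and 85.0 CPM in BAC day 4, against 38.3 and 30.2 CPM in BAC day 0. Its day 0 libraries lay further apart than its day 4 libraries, yet both were well below them, and the change was 1.34 ± 0.11 or 2.53-fold (adjusted p 2.00e-08). In 3T3-L1 it had 49.1 and 47.6 CPM at day 6, against 29.6 and 25.4 CPM at day 0, a change of 0.81 ± 0.09 or 1.76-fold (adjusted p 4.46e-08). The rise was larger in BAC for Uros, by 0.52 ± 0.19 (adjusted p 0.0233), and for Urod, by 0.50 ± 0.14 (adjusted p 0.00395). The Uros call was lost in 4 of 15 alternatives, and the Urod call was lost without 3T3-L1 day 0 replicate 2 (0.38, adjusted p 0.0597). Without BAC day 0 replicate 2 the Uros difference was 0.81, and without BAC day 0 replicate 1 the Urod difference was 0.83.

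The late steps parted from the early ones. Cpox (chr16:58670292-58717636), the first of the late enzymes in mitochondria, had 37.7 and 36.6 CPM in BAC day 4, against 47.4 and 45.2 CPM in BAC day 0. It was lower by a little, with a change of -0.32 ± 0.09, 1.25-fold lower (adjusted p 0.00592). In 3T3-L1 it had 26.4 and 27.8 CPM at day 6, against 28.0 and 26.9 CPM at day 0, and the groups overlapped (change -0.02 ± 0.09, adjusted p 0.855). The difference between lines, -0.33 ± 0.13 (adjusted p 0.0359), was lost in 11 of 15 alternative settings, 7 of which left out 1 library, and ran from -0.37 to -0.15. With library size alone as the scale the Cpox change was -0.58 in BAC and -0.31 in 3T3-L1.

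Ppox, which oxidizes the last precursor, gave the clearest contrast among the enzymes. It had 86.0 and 83.5 CPM in BAC day 4, against 50.8 and 49.2 CPM in BAC day 0, a change of 0.76 ± 0.08 or 1.69-fold (adjusted p 7.59e-07). In 3T3-L1 it had 30.7 and 29.9 CPM at day 6, against 32.7 and 37.6 CPM at day 0. That change, -0.21 ± 0.09, was just past the test (adjusted p 0.0409) and was lost in 6 of 12 alternatives. Among these were the fits without 3T3-L1 day 0 replicate 3 (-0.11, adjusted p 0.334), without 3T3-L1 day 6 replicate 1 (-0.23, adjusted p 0.191) and without 3T3-L1 day 6 replicate 2 (-0.19, adjusted p 0.253). The difference between lines was 0.95 ± 0.12 (adjusted p 3.67e-07) and stayed past the test in all 15 alternatives. Exons of Ppox overlap those of B4galt3 on the other strand by 791 bases, and the sources used here do not say whether counting was strand-aware. B4galt3 had 37.3 and 28.8 CPM in BAC day 4 against 37.7 and 36.4 in BAC day 0, where the groups overlapped (change -0.16 ± 0.12, adjusted p 0.216). It had 11.9 and 13.3 CPM in 3T3-L1 day 6 against 17.3 and 15.8 in 3T3-L1 day 0, where it was lower (change -0.40 ± 0.13, adjusted p 0.00880). Its part in the Ppox values was not tested.

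Fech, ferrochelatase, which places iron in the ring, was already high at day 0. It had 146 and 157 CPM in BAC day 4, against 106 and 104 CPM in BAC day 0, a change of 0.52 ± 0.08 or 1.44-fold (adjusted p 1.77e-05). It had 148 and 147 CPM in 3T3-L1 day 6, against 95.5 and 96.3 CPM in 3T3-L1 day 0, a change of 0.62 ± 0.05 or 1.54-fold (adjusted p 2.49e-09). The difference between lines was -0.12 ± 0.09 (adjusted p 0.268), with a 95% interval from -0.30 to 0.06. With library size alone as the scale the rise of Fech was 0.26 in BAC and 0.33 in 3T3-L1, still past the test.

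**Figure D2:**
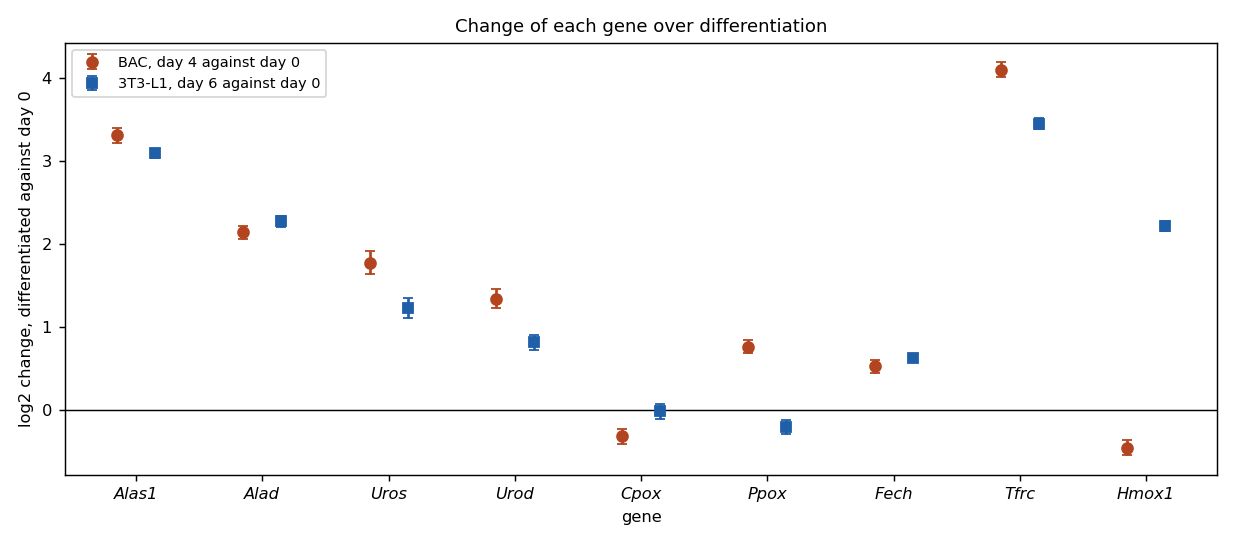
The log2 change of each gene is plotted with its standard error, for BAC (circles, day 4 against day 0) and 3T3-L1 (squares, day 6 against day 0), in the order of the pathway. Tfrc lies highest, at 4.10 in BAC and 3.45 in 3T3-L1, and Alas1 next, at 3.31 and 3.09. The points at or below zero are Cpox (-0.32 and -0.02), Ppox in 3T3-L1 (-0.21) and Hmox1 in BAC (-0.46).

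Within the pathway the first step gained most on the later ones. Per length of transcript, taken as the median coding transcript of GENCODE, the ratio of Alas1 to Cpox was 11.9 and 11.4 in BAC day 4 against 0.884 and 1.01 in BAC day 0. It was 8.65 and 8.14 in 3T3-L1 day 6 against 0.948 and 0.992 in 3T3-L1 day 0. In CPM per kb, the level of Alas1 was 140 in BAC day 4 against 14.1 in BAC day 0, and that of Alad was 132 against 29.9. Among the 7 enzymes Alas1 and Alad stood highest in the differentiated cells of both lines, and Cpox stood lowest, at 12.0 in BAC day 4 and 8.75 in 3T3-L1 day 6. At day 0 Fech stood highest, at 40.0 CPM per kb in BAC and 36.5 in 3T3-L1. Transcripts of Fech run from 1753 to 6571 bases, so that its place depends on which transcript the cells use.

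**Figure D3:**
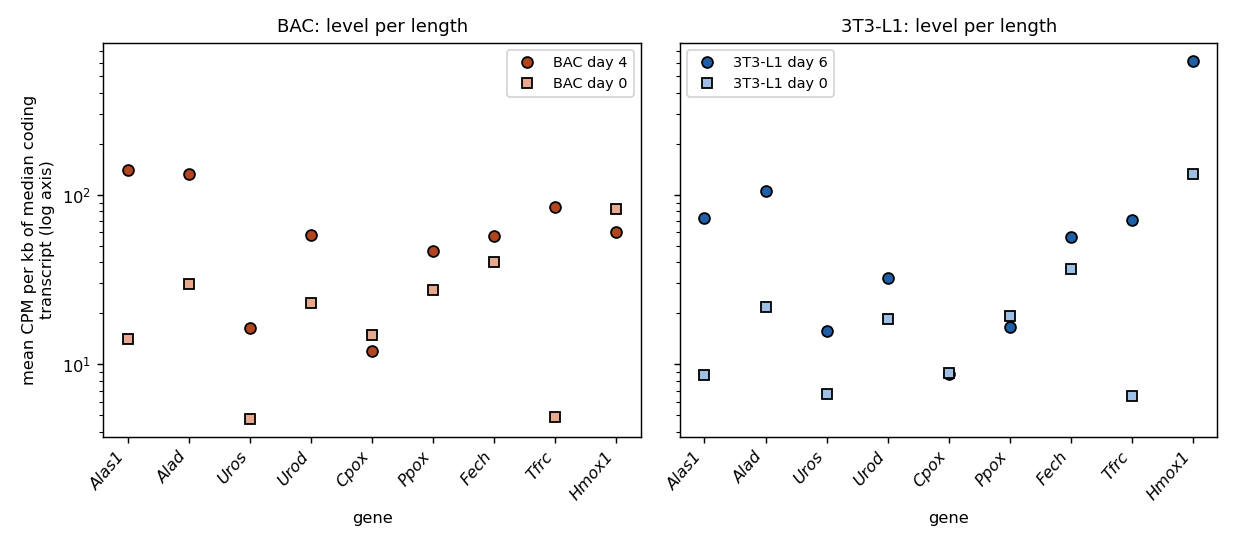
The group mean of each gene is given in CPM per kb of its median coding transcript, on a log axis, for BAC (left) and 3T3-L1 (right), with differentiated cells as circles and day 0 cells as squares. Alas1 and Alad are the highest enzymes in differentiated cells, and Fech is the highest at day 0.

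Tfrc, the transferrin receptor (chr16:32608920-32632794), had the largest change of the 9 in both lines. It had 293 and 279 CPM in BAC day 4, against 16.8 and 16.5 CPM in BAC day 0, a change of 4.10 ± 0.09 or 17.2-fold (adjusted p 2.03e-14). It had 233 and 244 CPM in 3T3-L1 day 6, against 21.0 and 22.8 CPM in 3T3-L1 day 0, a change of 3.45 ± 0.07 or 10.9-fold (adjusted p 6.46e-20). The rise was larger in BAC by 0.63 ± 0.12 (adjusted p 8.40e-05), and this held in all 15 alternatives.

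Of the other genes with the loop letters shown above, Fth1, Ftl1 and Slc40a1 had smaller changes than Tfrc in both lines. Fth1, the ferritin heavy chain, averaged 1672 ± 210 CPM in BAC day 4 and 1339 ± 117 in BAC day 0 (SD, n = 2 each), a change of 0.32 ± 0.10 that was lost with library size alone (0.06, adjusted p 0.598 by edgeR). In 3T3-L1 it averaged 1840 ± 15.3 CPM at day 6 and 2634 ± 63.0 at day 0, a change of -0.52 ± 0.05. Ftl1, the light chain, was lower in both lines, by -0.49 ± 0.08 in BAC and -0.13 ± 0.05 in 3T3-L1. Ferritin genes have many near-identical copies in the genome, so their counts are uncertain. Counts of Tfrc per 100 counts of both ferritin genes were 10.6 and 11.5 in BAC day 4 against 0.603 and 0.666 in BAC day 0, and 6.80 and 7.10 in 3T3-L1 day 6 against 0.468 and 0.534 in 3T3-L1 day 0. Slc40a1, ferroportin, the sole known iron exporter of mammalian cells, changed by 1.30 ± 0.14 in BAC and by -0.49 ± 0.12 in 3T3-L1.

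Of the 18 other genes of iron uptake, reduction and transport, 16 were tested in BAC, with 7 higher, 7 lower and 2 not past the test, and 14 in 3T3-L1, with 6 higher, 7 lower and 1 not past. Those shares were near the background in both directions. The genes that rose included Trf, transferrin itself (5.05 in BAC, 3.60 in 3T3-L1), Steap4, a metal reductase (5.21 and 5.60), and Hfe, which binds the transferrin receptor (1.57 and 5.02). In 3T3-L1 day 0 Steap4 had only 24 and 4 counts and Hfe 2 and 6. With 1 library left out, their 3T3-L1 changes ran from 4.82 to 7.37 and from 4.45 to 5.96. Slc11a2, which carries iron out of endosomes after uptake by TFRC, rose by 1.71 ± 0.10 in BAC and 1.23 ± 0.06 in 3T3-L1. Tfr2, the second transferrin receptor, had 164 and 127 counts in BAC day 4 against 2 and 3 in BAC day 0, a change of 6.20 ± 0.33, and too few counts in 3T3-L1 for the test. Lrp1, a receptor that clears hemopexin with its heme among many ligands, was lower in both lines (-2.72 and -1.23). Cp, ceruloplasmin, an iron oxidase, was lower in BAC (-1.85) and higher in 3T3-L1 (1.61).

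Of the 14 genes of iron storage and sensing, 11 were tested in each line, with 8 higher, 1 lower and 2 not past in BAC and 7 higher, 2 lower and 2 not past in 3T3-L1. Aco1, which encodes iron regulatory protein 1 and serves as cytosolic aconitase when it holds an iron-sulfur cluster, rose by 2.31 ± 0.08 in BAC and 2.75 ± 0.06 in 3T3-L1. Ireb2, iron regulatory protein 2, had a change of -0.05 ± 0.08 in BAC (adjusted p 0.595 by edgeR) and rose by 0.37 ± 0.05 in 3T3-L1. Ncoa4, which brings ferritin to lysosomes, rose by 1.18 and 1.67, and Cisd1, an iron-sulfur protein of the outer mitochondrial membrane, by 3.28 and 2.32.

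Hmox1, heme oxygenase 1 (chr8:75093621-75100589), which opens the heme ring and frees its iron, behaved differently in the lines. It had 103 and 85.4 CPM in BAC day 4, against 126 and 132 CPM in BAC day 0. Both day 4 libraries were below both day 0 libraries, and the change was -0.46 ± 0.09, 1.37-fold lower (adjusted p 3.20e-04). In 3T3-L1 it had 935 and 1005 CPM at day 6, against 215 and 203 CPM at day 0, a change of 2.21 ± 0.06 or 4.64-fold (adjusted p 2.93e-18). The difference was -2.70 ± 0.11 (adjusted p 2.09e-16) and was past the test in all 15 alternatives, and the BAC change ran from -0.72 with library size alone to -0.32 over 13 alternatives, all called. Counts of Alas1 per count of Hmox1 were 4.34 and 4.89 in BAC day 4 against 0.332 and 0.343 in BAC day 0. They were 0.244 and 0.225 in 3T3-L1 day 6 against 0.123 and 0.131 in 3T3-L1 day 0. Both lines thus had fewer counts of Alas1 than of Hmox1 before differentiation, and only BAC day 4 had more. In CPM per kb Hmox1 was the highest of the 9 genes in 3T3-L1 day 6 at 618, in 3T3-L1 day 0 at 133 and in BAC day 0 at 82.3, and the fourth in BAC day 4 at 60.0.

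The difference in change was tested in 1 fit of all 8 libraries. Of 12863 genes tested, 25.3% had a higher change in BAC and 33.7% a lower one, and the median difference of all genes was -0.11. Of the 9 genes, 4 had a higher change in BAC (Uros, Urod, Ppox and Tfrc), 2 a lower one (Cpox and Hmox1) and 3 were not past the test (Alas1, Alad and Fech). Without 3T3-L1 day 0 replicate 2 only 3 of the 9 were past the test.

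Hmox1 stands among other genes of heme breakdown, binding and transport, of which 10 of 11 were tested in BAC, with 6 higher and 4 lower, and 9 in 3T3-L1, with 7 higher and 2 lower. Hmox2, the constitutive heme oxygenase, rose in both lines, by 0.77 ± 0.08 in BAC and 1.04 ± 0.07 in 3T3-L1. Blvra and Blvrb, the biliverdin reductases that act after heme oxygenase, rose by 0.79 and 0.78 in BAC and by 0.99 and 0.68 in 3T3-L1. Slc48a1, which carries heme out of lysosomes, rose by 1.09 and 1.16. Carriers of heme at the cell surface split. Flvcr1, a heme exporter listed under its older symbol Mfsd7b, rose by 2.21 ± 0.14 in BAC and had a change of -0.50 ± 0.14 in 3T3-L1, whereas Slc46a1, a carrier of folate and heme, was -0.88 ± 0.20 in BAC and 1.69 ± 0.17 in 3T3-L1. Abcg2, an exporter of porphyrins and heme, was lower by the same -0.93 in both lines, and Hebp2, a heme-binding protein, was lower in BAC (-2.17).

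The list of other heme synthesis genes and mitochondrial carriers rose nearly as a whole, with 13 of 15 tested higher, 1 lower and 1 not past in BAC, and 15 of 16 higher and 1 lower in 3T3-L1. One of its genes, Fxyd1 (4.70 in BAC), encodes a regulator of the sodium pump and is not a heme gene. Without it 12 of 14 were higher in BAC and 14 of 15 in 3T3-L1. Clpx and Lonp1, parts of mitochondrial proteases that act on ALAS1 protein in mammals, rose by 3.02 and 2.64 in BAC and by 2.30 and 2.16 in 3T3-L1. Pgrmc2, a heme chaperone of fat cells, rose by 0.84 ± 0.08 in BAC and 2.02 ± 0.05 in 3T3-L1. Slc25a39, a mitochondrial carrier of glutathione that was first tied to heme synthesis, rose by 2.48 and 1.60, and Slc25a28, the mitochondrial iron importer of most tissues, by 1.60 and 0.55. Slc25a37, mitoferrin 1, split between lines, with 0.77 ± 0.10 in BAC and -1.61 ± 0.09 in 3T3-L1. Pgrmc1, a partner of ferrochelatase, was -0.27 in BAC, a call lost in 1 alternative, and 0.45 in 3T3-L1.

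Of 14 genes for heme proteins and for enzymes that make heme a, attach heme or serve cytochrome b5, 13 were higher and 1 lower in each line. The median change was 1.91 in BAC and 1.61 in 3T3-L1. Among all genes tested, 39.1% were higher in BAC and 39.8% in 3T3-L1. Cycs, cytochrome c, rose by 4.61 ± 0.10 and 3.99 ± 0.07, and Cyc1, cytochrome c1 of complex III, by 3.72 ± 0.09 and 2.87 ± 0.07. Cycs has processed copies in the genome, so its counts are uncertain. Cat, catalase, rose by 2.76 and 2.82. Cox10, Cox15 and Hccs, which make heme a and attach heme to cytochrome c, rose by 1.88, 1.07 and 1.66 in BAC and by 1.53, 1.70 and 1.17 in 3T3-L1. Cyb561 had 557 and 494 counts in 3T3-L1 day 6 against 2 and 0 in 3T3-L1 day 0, a ratio of 644 with a 95% exact counting interval from 178 to 5324. The gene that went down was Cyb5r3, the reductase of cytochrome b5 (-0.93 and -0.28), which does not itself hold heme.

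**Figure D4:**
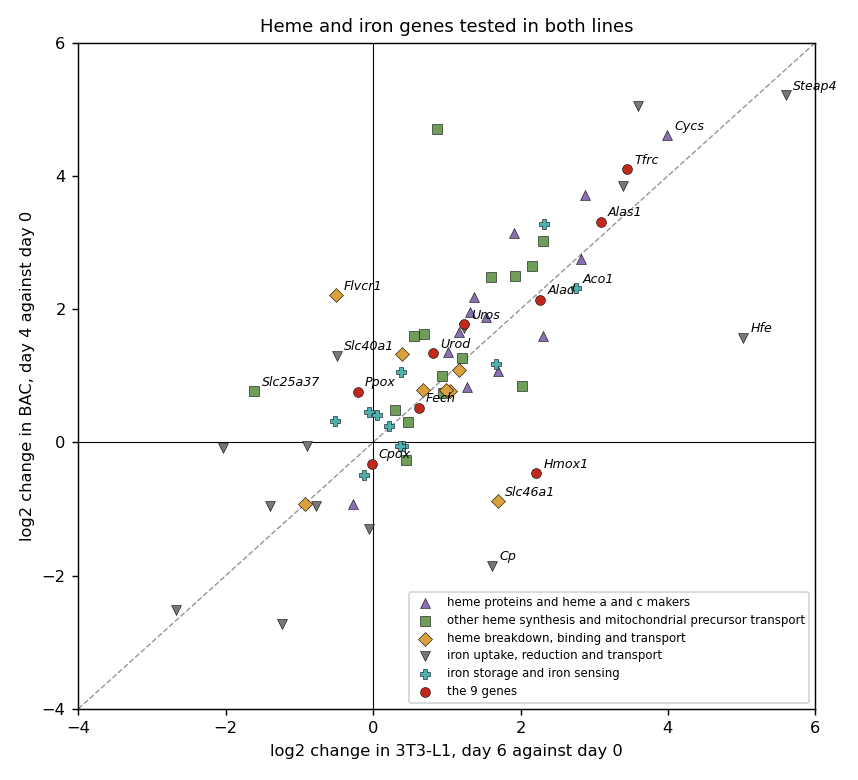
Each point is a gene tested in both lines, with its log2 change in 3T3-L1 on the horizontal axis and in BAC on the vertical axis; circles are the 9 genes, other marks are the companion lists, and the dashed line marks equal change. Cyb561 is left out because 3T3-L1 day 0 held 2 counts. Hmox1, Slc46a1, Cp and Pgrmc1 are among the genes right of zero and below it, and Flvcr1, Slc40a1, Slc25a37, Ppox and Fth1 among those left of zero and above it.

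Of 9 known regulators of Alas1, 8 were tested in each line, with 5 higher and 3 not past in BAC and 6 higher and 2 not past in 3T3-L1. Ppargc1a, the coactivator PGC-1α, which induces Alas1 in mouse liver, had 46.7 and 46.4 CPM in BAC day 4 against 0.631 and 1.09 CPM in BAC day 0 (change 5.74 ± 0.19), and 41.7 and 42.5 CPM in 3T3-L1 day 6 against 20.4 and 20.2 CPM in 3T3-L1 day 0 (change 1.05 ± 0.09). The rise of Ppargc1a was larger in BAC by 4.66 ± 0.24 (adjusted p 1.39e-14). Ppargc1b rose by 6.42 and 4.89, and Esrra, a nuclear receptor that works with both, by 2.65 and 1.89. Nrf1, whose letters are shown above, did not pass the test, with a change of 0.05 ± 0.10 in BAC (adjusted p 0.660) and 0.03 ± 0.10 in 3T3-L1 (adjusted p 0.816). Nr1d1, a heme-binding repressor of Alas1, also did not pass, with -0.20 ± 0.09 and -0.03 ± 0.06.

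Bach1, a heme-sensing repressor of Hmox1, and Nfe2l2, the gene of its activator NRF2, are given beside it. Bach1 was lower by -0.89 ± 0.11 in BAC and -1.42 ± 0.07 in 3T3-L1, and Nfe2l2 higher by 0.27 ± 0.07 and 0.28 ± 0.06. Of the 15 genes of BACH1, NRF2 and their stress targets, 9 were higher, 4 lower and 2 not past in BAC, and 10 higher, 4 lower and 1 not past in 3T3-L1. Maff had the largest change of these in BAC (2.78) and rose by 1.67 in 3T3-L1. Nqo1, a quinone reductase and NRF2 target, was lower in both lines (-2.70 and -1.75), and Gclm, of glutathione synthesis, was higher in both (1.00 and 1.91). Of 11 genes of proliferation, 6 were higher and 5 lower in BAC and 1 was higher and 10 lower in 3T3-L1. Myc changed most among them, by 1.65 in BAC and 1.81 in 3T3-L1. With library size alone 2 of the 11 were higher, 5 lower and 4 not past in BAC. There Mcm2, Mcm3, Mcm5 and Pcna, which act in DNA replication, had changes of -0.02, -0.04, 0.04 and 0.03. Without either BAC day 0 library 3 were higher, 4 lower and 4 not past. Their summed level was 2075 to 2085 CPM in BAC day 4 against 2288 to 2353 in BAC day 0, and 268 to 272 in 3T3-L1 day 6 against 467 to 468 in 3T3-L1 day 0. Its part in the changes of the 9 genes was not tested.

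The genes most like Alas1, Tfrc and Hmox1 were sought among 9309 genes by the Euclidean distance of log2 CPM, centred within each line, over the 8 libraries. For Alas1 they were Pgk1, a glycolytic enzyme, Etfdh, of the electron transfer chain, and Uqcrfs1, of complex III, at distances of 0.19, 0.21 and 0.27. For Tfrc they were Uck1, Hibch and Pdhb, at 0.21, 0.23 and 0.24. For Hmox1 they were Chst11, Ehd2 and Enpp2, at 0.33, 0.35 and 0.39, each with a negative change in BAC (-0.28, -0.24 and -0.37) and a rise in 3T3-L1 (2.13, 1.98 and 2.11).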

How the data were processed

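For each line the authors deposited whole-number counts per gene symbol, without normalization, in a table of its own with 4 libraries. Per the methods, polyA RNA was aligned with STAR to the mouse genome and counted with HTSeq. Bowtie2, RSEM 1.3.1, DESeq2 1.4.5 and build mm10 stand in the processing notes of the submitters, and the 3T3-L1 sheet alone is labelled htseq-count, so the counting route is uncertain, above all for BAC. For BAC, 27 gene names had become dates, with up to 0.316% of a library's counts, and were left out, leaving 35949 of 35976. Counts as deposited were tested with edgeR 4.0.16 (R 4.3.3): filterByExpr with a minimum count of 10, TMM factors, quasi-likelihood fits of each line, and 1 fit of all 8 libraries for the difference in change, with Benjamini-Hochberg adjustment over all genes tested. All tests were two-sided. Intervals are the estimate ± 1.96 SE, which with so few libraries is narrower than the test itself allows. The fits were tested on simulated data. For genes besides the 9, the naming rule took, per list and line, up to 3 with the largest called change and the largest against the majority. Hpx, Hebp1, Nr1i3, Mki67 and Ccna2 also met that rule but are not described. Others, such as Slc11a2, Hmox2 and Cat, were chosen after their values were seen. The 9 genes, the lists and the element search were chosen with earlier results of these data known. Alternatives were other scalings and count minimums, DESeq2 1.42.0, a replicate block, a joint fit, mitochondrial genes left out and each library left out. The SE is the absolute change divided by the square root of the test's F statistic. It was 0.05 to 0.14 for the 9 genes' changes within each line. Positions are from GENCODE M21. 1 gene is not reported here.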

Additional observations from a re-analysis of the deposited data

Results flagged for a closer look

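Of the 9 genes, 6 changed by a different amount in BAC than in 3T3-L1 by the test of the difference (log2, BAC minus 3T3-L1, edgeR), with values of 0.52 for Uros, 0.50 for Urod, -0.33 for Cpox, 0.95 for Ppox, 0.63 for Tfrc and -2.70 for Hmox1. Such calls were common among all 12863 genes tested, of which 25.3% had a higher change in BAC and 33.7% a lower one. The calls for Ppox, Tfrc and Hmox1 held in all 15 alternatives.

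Among the companion genes of heme and iron, those called in opposite directions in the lines were Slc25a37 (difference 2.36), Pgrmc1 (-0.75), Mfsd7b, now Flvcr1 (2.68), Slc46a1 (-2.59), Slc40a1 (1.76), Cp (-3.49) and Fth1 (0.81). Their directions held in all alternatives within each line, but some calls were lost. The BAC change stayed past the test in 9 of 13 for Fth1 and 12 of 13 for Pgrmc1. The 3T3-L1 change of Flvcr1 stayed past it in 11 of 12. Txnrd1, thioredoxin reductase, differed by -0.53, and its rise of 0.15 in 3T3-L1 became -0.15 with library size alone. That rise kept its direction in 10 of 12 alternatives and stayed past the test in 3.

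The replication genes Mcm2, Mcm3, Mcm5, Pcna and Rrm2 differed by 1.55, 1.61, 1.55, 1.02 and 1.48. They were lower in 3T3-L1 day 6 in every alternative. Their BAC changes of 0.25, 0.22, 0.31, 0.29 and 0.67 were -0.02, -0.04, 0.04, 0.03 and 0.41 with library size alone, so in BAC the direction of Mcm2 and Mcm3 depended on the scaling.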

How the results depend on the processing

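In BAC all 9 genes were past the test, in the same direction, in each of 13 alternatives. Of all genes tested, 39.1% were higher and 39.4% lower in BAC, and 39.8% and 39.6% in 3T3-L1. In 3T3-L1 the number past the test lay between 7 and 9 over 12 alternatives. For the difference between lines 6 genes were past the test, 4 with DESeq2, 5 with library size alone and 3 to 6 when 1 library was left out, the lowest without 3T3-L1 day 0 replicate 2. With 1 library left out, the 3T3-L1 change of Cpox ran from -0.05 to 0.02, and the differences of Alad and Fech from -0.22 to 0.01 and from -0.18 to 0.04. The Alas1 difference passed the test in 3 alternatives, at 0.26 to 0.40. The Uros difference missed it in 4 and the Urod difference in 1. With library size alone the median of all genes moved by -0.26 in BAC and -0.29 in 3T3-L1, and the share of higher among called genes was 38.7% beside 49.8% in BAC and 35.2% beside 50.1% in 3T3-L1. Upper-quartile factors moved the 3T3-L1 median by -0.16 and the median difference by 0.12. Leaving out either BAC day 0 library moved the median difference by 0.15. The causes were not tested. Alas2 had too few counts for the test in BAC.

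Same-numbered BAC libraries did not deviate together (r = 0.01 across 14028 genes, which are not independent). With 2 libraries per group this cannot show whether libraries of the same number share a culture or batch. With the replicate block 9 of the 9 genes stayed past the test in BAC, and 11099 genes in all beside 11014. No such block was possible in 3T3-L1, because its groups share only 1 replicate number.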
